A study of Mus musculus with 12 samples.

Results

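Sperm of mice heterozygous for Atf7 were compared with wild-type sperm, both from males kept on a low protein diet, in a table of 2971 tRNA fragment sequences. The 2 groups, 3 libraries each, were chosen by their column labels, and they are 6 of the 12 libraries of the series. All sequences in the table were tested. Some of the sequences, sums and shares described below were chosen after their values were seen, as stated with the processing. Male mice, either wild type (WT) or carrying 1 mutant Atf7 copy (ATF7+/-), had eaten the low protein diet (LPD) between 3 and 12 weeks of age. The remaining 6 libraries, WT and ATF7+/- on control diet (CD) over the same weeks, enter below only where they set the spread of a test or show the same contrast on the other diet. Strain, the nature of the Atf7 allele and the number of animals behind a library are not given in the labels, so the p-values measure the spread between these libraries, which may be partly technical.

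The sperm came from the caudal epididymis and vas deferens, were sonicated to part heads from tails and were pelleted through 82% Percoll. The labels call them histone replacement-completed sperm (HRCS), in which protamines have taken the place of most histones. The table holds counts of fragments of 15 to 36 nt from reads of 36 nt, with no mRNA, so the level of Atf7 could not be checked. It also held none of 34 mature arms of 20 marker miRNAs (germ cells, epididymal epithelium, smooth muscle, blood cells), nor any of 1679 mouse arms in RefSeq, so the sperm label could be neither checked nor faulted here. The totals by which the authors scaled the counts were 2278880 to 2874170 reads in WT and 4828916 to 6870039 in ATF7+/- libraries. The fragments in the table made up 98.1 to 98.2% of them, so they need not be the number of reads sequenced. Every ATF7+/- library had a larger total than every WT library, so genotype and this total cannot be told apart. Reads carried no molecular identifiers. A level of 3 counts corresponded to 1.04 to 1.32 RPM (reads scaled to equal library totals by the authors) in WT and 0.437 to 0.621 RPM in ATF7+/- libraries, which covers counting error only.

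As background, ATF7 is a transcription factor of the ATF/CREB family that is phosphorylated by stress-activated kinases and takes part in heterochromatin silencing. Mature tRNAs are cut in or near the anticodon loop by nucleases such as angiogenin, and the 5′ pieces are the main tRNA fragments of sperm. Sperm gain many of these pieces on their way along the epididymis, and work by others links glycine fragments to the diet of the father. The 3′ end of a fragment marks where the RNA ended or where the read stopped.

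Sequences were grouped by their bases into 19 tRNA families and by their ends. A fragment is called complete when it starts at base 1 of the tRNA, extended when it starts before that base and trimmed when it starts after it. Positions are counted from 1 at that base without the gaps of standard tRNA numbering, so the anticodon lies at 33 to 35 in Gly-GCC and Gly-CCC and at 34 to 36 in Gly-TCC, Glu-CTC, Lys-CTT and Val-CAC. A token such as C30G gives the base of the family's reference, its position and the base read. The reference is the founding (most abundant) sequence, carried beyond its ends by longer members without a differing base. Differing from the founding sequence means, below, differing from this reference. Sequences were placed without gaps unless several bases differed, so a short deletion can appear as substitutions. Families whose anticodon was not read are named for their first bases, as in "proline-like". Val-CAC is a family name only. Of its few long fragments 3 sequences read GAC (50.2 RPM), 1 read CAC (33.5 RPM) and 1 read GAT (6.20 RPM).

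The first set of sequences shows the 6 fragments that passed the test between genotypes, with bases that differ from the founding sequence in capitals, or, in the Gly-TCC fragment, the anticodon.
Gly-TCC trimmed, ends at 37: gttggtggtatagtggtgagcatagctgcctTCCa
Gly-GCC complete, ends at 28, G6T and T27G: gcattTgtggttcagtggtagaattcGc
Gly-GCC complete, ends at 28, T27G: gcattggtggttcagtggtagaattcGc
Val-CAC complete, ends at 34, C34A: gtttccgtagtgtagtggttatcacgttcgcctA
Gly-GCC complete, ends at 30, C30G: gcattggtggttcagtggtagaattctcgG
Glu-CTC trimmed, ends at 31, T5C and G6T: CTgtggtctagtggttaggattcggcg

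The next set shows fragments of 1 tRNA that differ in where they end, since the genotype difference in Gly-GCC changed with that end. Capitals mark bases of the anticodon.
Gly-GCC complete, ends at 30: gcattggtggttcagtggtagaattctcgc
Gly-GCC complete, ends at 34: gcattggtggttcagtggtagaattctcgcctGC
Gly-GCC complete, ends at 35: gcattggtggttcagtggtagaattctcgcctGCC
Gly-GCC trimmed, ends at 38: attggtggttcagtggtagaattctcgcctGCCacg
Lys-CTT complete, ends at 35: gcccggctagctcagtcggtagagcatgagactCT
Lys-CTT complete, ends at 36: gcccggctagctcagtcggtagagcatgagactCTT
Gly-CCC trimmed, ends at 37: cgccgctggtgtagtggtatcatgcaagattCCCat
Val-CAC complete, ends at 34: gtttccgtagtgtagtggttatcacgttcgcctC

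The last set shows the families whose totals passed the test, proline-like and serine-like, with no capitals because their anticodons were not located.
Proline-like complete, ends at 31: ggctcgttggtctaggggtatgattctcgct
Proline-like complete, ends at 32: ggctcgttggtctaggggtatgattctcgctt
Proline-like complete, ends at 33: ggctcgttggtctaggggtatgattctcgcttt
Serine-like complete, ends at 32: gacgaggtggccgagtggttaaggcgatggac

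Fragments of glycine and lysine tRNAs that carry a whole anticodon were less abundant in ATF7+/- sperm, while shorter glycine pieces mostly overlapped between genotypes or were more abundant, and shorter lysine pieces went both ways. No single sum of fragments passed the main test, as given with the counts further on. Complete Gly-GCC fragments ending at 35, the last anticodon base, summed to 4862, 5333 and 4675 RPM in the 3 WT libraries and to 1666, 1986 and 2123 RPM in the 3 ATF7+/- libraries. Those ending 1 base earlier, at 34, were at 333, 376 and 284 RPM in WT and 369, 396 and 370 RPM in ATF7+/-. The groups lay far apart at 35 and overlapped at 34. The log2 fold change (ATF7+/- minus WT, here and below) was −1.36 (SE 0.41) at 35 and 0.19 (SE 0.36) at 34. At 36 it was −1.73 (SE 0.41), and in trimmed fragments ending at 35, 37 and 38 it was −1.07, −1.26 and −1.61. All 5 of these sums were lower in every ATF7+/- library than in every WT library.

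Upstream of the anticodon the Gly-GCC sums were higher in ATF7+/- sperm or level. Complete fragments ending at 30 were at 60360, 57989 and 60641 RPM in WT and 77330, 110795 and 94989 RPM in ATF7+/- (0.66, SE 0.19). Those ending at 29 were at 29309, 33101 and 28896 RPM in WT and 41354, 53671 and 46243 RPM in ATF7+/- (0.63, SE 0.25). ATF7+/- replicate 2 was the highest library and ATF7+/- replicate 1 the lowest of its group in both sums, and neither sum overlapped between genotypes. The most abundant end, 28, had a log2 fold change of 0.01 (SE 0.23). The 9 complete Gly-GCC sums of at least 100 RPM ran from −1.36 to 0.66, and 8 of the 9 were positive.

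**Figure D1:**
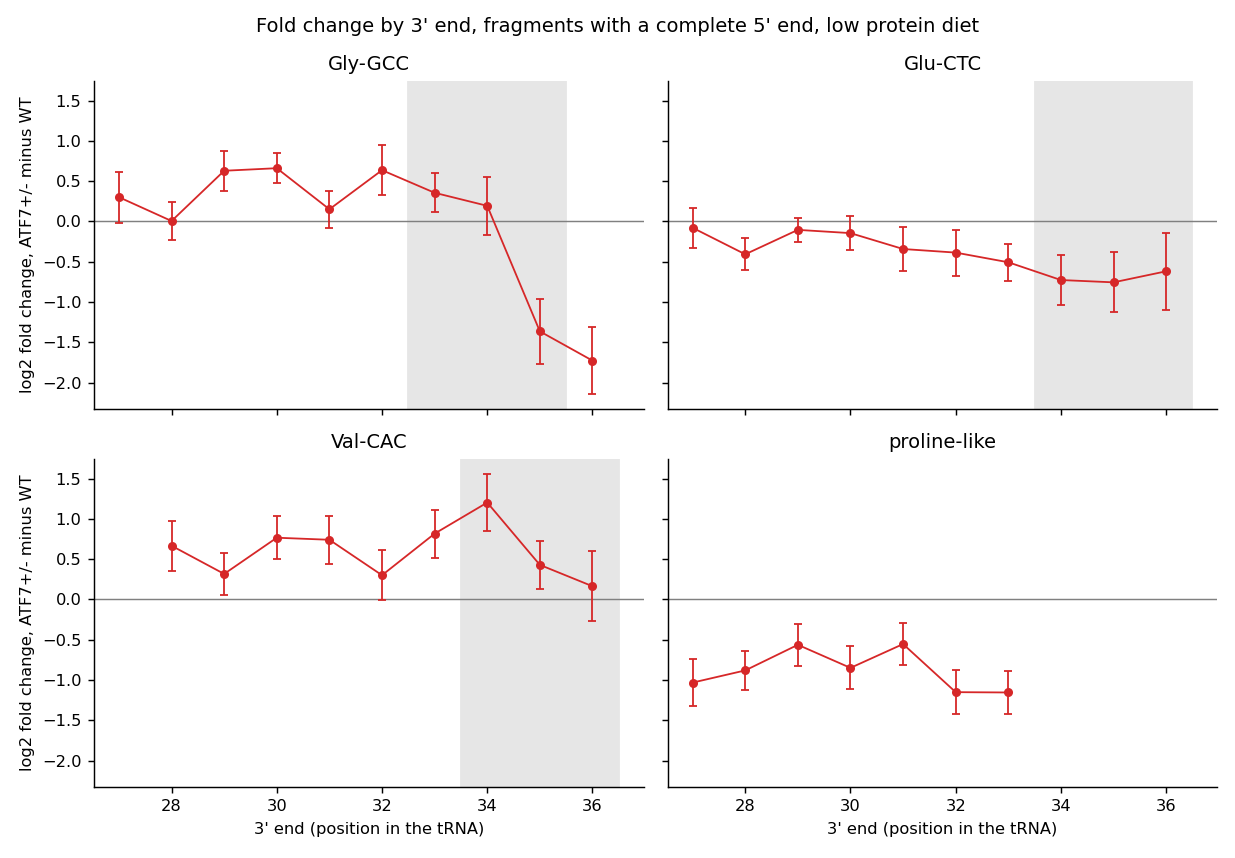
Log2 fold change between ATF7+/- and WT libraries on low protein diet (vertical axis, log2 scale) against the position of the fragment's 3′ end, for complete fragments of 4 families; points are sums of all sequences that share the end, bars are 1 SE, and grey marks the anticodon. In Gly-GCC the points lie at or above 0 from position 27 to 34 and drop to −1.36 and −1.73 at 35 and 36, whereas all Val-CAC points are above 0 and all proline-like points below it.

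Other families with enough long fragments were examined in the same way, after the Gly-GCC values had been seen. Complete Lys-CTT fragments ending at 36, the last anticodon base, were at 2219, 2410 and 2542 RPM in WT and 1438, 1256 and 1408 RPM in ATF7+/- (−0.81, SE 0.34). At 35 they were at 1269, 1333 and 1153 RPM in WT and 1385, 1346 and 1460 RPM in ATF7+/- (0.16, SE 0.46). Shorter lysine sums were mixed. Of the 18 that end before the last anticodon base 10 were negative, and 4 were lower without overlap (complete ends 20, 29, 30 and 31, at −0.78, −0.45, −0.44 and −0.28) against 1 higher, so lower lysine levels were not particular to fragments with the whole anticodon. Complete Gly-TCC fragments ending at 36 were at 43.9, 46.3 and 27.4 RPM in WT and 15.3, 18.8 and 23.7 RPM in ATF7+/- (−1.02, SE 0.39). Trimmed Gly-CCC fragments ending at 37 were at 8.78, 19.1 and 22.6 RPM in WT and 3.93, 2.04 and 3.999 RPM in ATF7+/- (−2.34, SE 0.62). These sums of the glycine isoacceptors with other anticodons were both lower in every ATF7+/- library than in every WT library, while the totals of both isoacceptors overlapped.

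Over the families with a known anticodon, 19 sums of fragments reached its last base, and 15 of them were negative, with a median of −0.80. A further 153 sums of the same families ended earlier, 67 of them negative, with a median of 0.06. Over all 200 sums tested the median was −0.06. Among the 19 sums, 11 were lower in ATF7+/- without overlap and 0 were higher. Of all sums 22% were lower and 12% higher without overlap. The 19 include the 5 Gly-GCC sums whose values prompted this split, all 5 negative and lower without overlap. The counts over the 19 are therefore not independent of that choice. The 4 positive sums of the 19 belonged to Val-CAC, Glu-TTC, Gln-CTG and His-GTG and ran up to 0.31. In the edgeR quasi-likelihood fit to all 12 libraries, 0 of 200 sums passed an adjusted p of 0.05 (percent called 0), and 36 (18%) had an unadjusted p under 0.05. DESeq2 called 24 sums and limma 0. The Gly-GCC sum ending at 35 had an adjusted p of 0.0957, and that ending at 36 of 0.0617. Fitted to the 6 low protein libraries alone, edgeR called 32 of 194 sums (16.5%), 9 higher (4.64%) and 23 lower (11.9%). Among the lower ones were 9 of the 19 sums that reach the last anticodon base, and these 9 include all 5 Gly-GCC sums. The number called in that fit was 1 without ATF7+/- replicate 3, 7 without WT replicate 2 and 9 without WT replicate 3.

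The same difference was seen as a share of each family's own reads, a measure that does not depend on library totals. Of Gly-GCC reads, 1.33, 1.49 and 1.36% reached the last anticodon base in WT and 0.444, 0.434 and 0.510% in ATF7+/-, a mean of 1.39 ± 0.0842% against 0.463 ± 0.0412% (SD, n = 3). For Lys-CTT the shares were 8.66, 8.87 and 9.502% in WT and 5.45, 5.79 and 5.74% in ATF7+/-. The Gly-CCC share was 13.8 ± 2.38% in WT and 4.75 ± 0.492% in ATF7+/- (n = 3), and the Gly-TCC share 3.05 ± 0.808% and 1.27 ± 0.331% (n = 3). None of these 4 families overlapped between genotypes. Val-CAC parted by less, 0.612 ± 0.0949% against 0.480 ± 0.0567%, and Glu-CTC, Glu-TTC and Gln-CTG overlapped. Each share without overlap had a two-sided exact permutation p of 0.1, which is the lowest possible with 3 libraries a side, and 0.16 after Benjamini-Hochberg adjustment over the 48 shares and ratios compared. Most of these 48 did not overlap between genotypes.

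On control diet the Gly-GCC share was 0.303, 0.761 and 1.12% in WT and 0.915, 0.818 and 0.438% in ATF7+/-. These groups overlapped fully, and the low protein WT libraries were above all of them while the ATF7+/- libraries on that diet lay in the lower part of their range. The difference of the genotype differences between diets was −0.92 percentage points (exact permutation of genotype within diet, n = 3 per group, p 0.055, adjusted p 0.22). It was therefore not shown that the genotype difference depended on diet. Counting only Gly-GCC reads with no differing base, fragments of 34 to 36 nt made up 1.58 ± 0.0986% in WT and 0.588 ± 0.0509% in ATF7+/- (n = 3). The difference was thus also present in reads identical to the family's reference. Because reads ended at 36 nt, the true 3′ end of a longer fragment was not seen. A sequence of 36 nt may thus stem from a longer fragment. This holds for the complete sums at end 36, the trimmed Gly-GCC sum at 38 and the trimmed Gly-CCC sum at 37. The Gly-GCC sequence shown above that ends at 35 is 35 nt long.

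**Figure D2:**
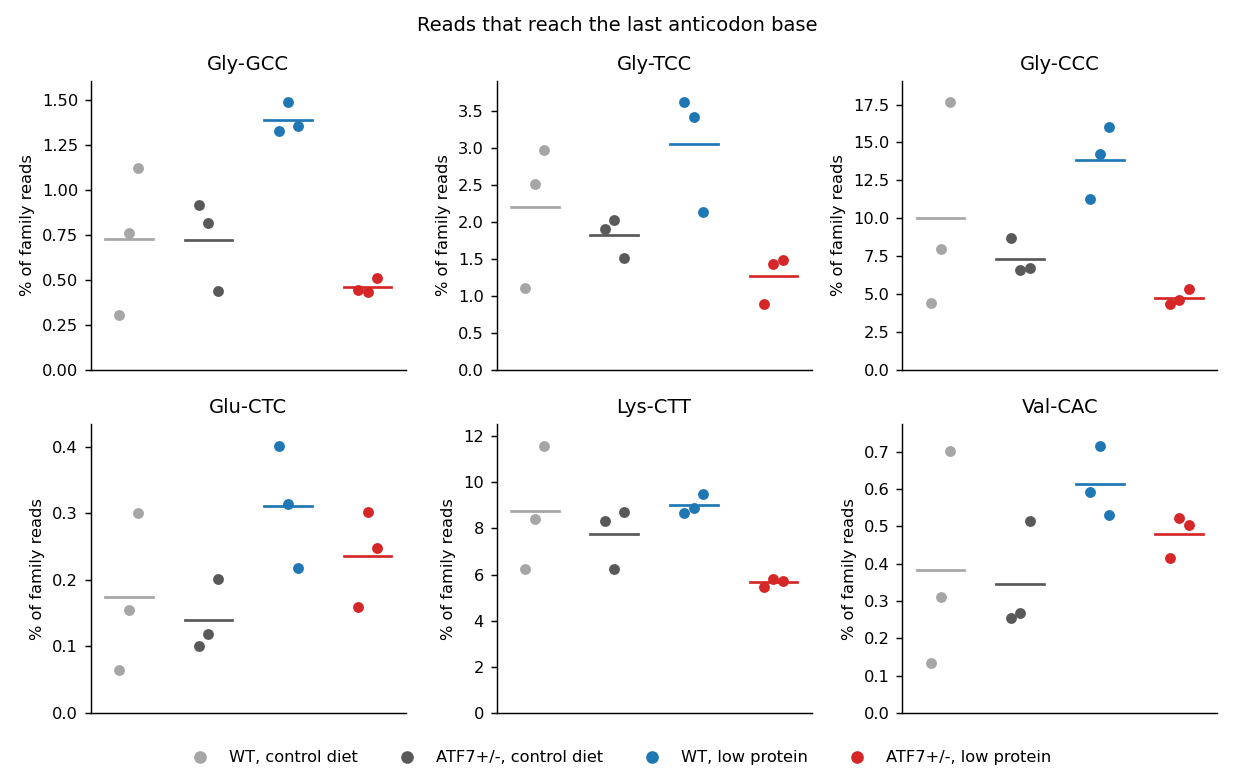
Share of each family's reads that reach the last anticodon base (vertical axis, percent, each panel with its own scale from 0) in the 12 libraries; each point is a library and each line a group mean. In the 3 glycine families and Lys-CTT all 3 ATF7+/- low protein libraries lie below all 3 WT low protein libraries, while the control diet groups overlap.

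Valine fragments had positive log2 fold changes at all ends tested, though no valine sum passed the main test. Val-CAC totals were at 17393, 15894 and 17541 RPM in WT and 22803, 21868 and 25540.0 RPM in ATF7+/- (0.47, SE 0.19, edgeR adjusted p 0.111), without overlap. Of its 185 sequences 94.6% had a positive log2 fold change, with a median of 0.61, where 58.1% of all 2971 were positive with a median of 0.11. All 10 complete sums were positive, 8 of them without overlap, and the trimmed sums overlapped. Of all 200 sums 12% were higher without overlap. The complete sums of at least 100 RPM ran from 0.30 to 1.20. The largest was at end 34, the first anticodon base, with 511, 471 and 436 RPM in WT and 810, 1251 and 1205 RPM in ATF7+/- (1.20, SE 0.36). Fragments of 34 to 36 nt accordingly made up 3.72 ± 0.321% of Val-CAC reads in WT and 5.45 ± 1.12% in ATF7+/- (n = 3, no overlap, exact permutation p 0.1). The same length class was lower in Gly-GCC, but it cuts the anticodons of these families at different bases. Of Val-CAC reads, 0.612% reached the last anticodon base in WT and 0.480% in ATF7+/-, the same direction as in Gly-GCC. Val-TAC, the other family named for valine, was at 300, 335 and 364 RPM in WT and 414, 455 and 429 RPM in ATF7+/- (0.38, SE 0.19). Neither valine family passed the main test, and with TMM scaling, which shifted the median of all families to 0.20, both were called higher.

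Proline-like fragments fell in ATF7+/- sperm as a total, while no single proline-like sum passed the main test. Their total was at 3118, 3090 and 3473 RPM in WT and 1791, 1743 and 1813 RPM in ATF7+/- (−0.86, SE 0.19, edgeR adjusted p 0.00379 over 19 families). Fragments ending at 32 were at 665, 643 and 634 RPM in WT and 278, 294 and 303 RPM in ATF7+/- (−1.15, SE 0.27). The ATF7+/- libraries were close together and far below the WT ones. All 7 complete sums were negative, from −0.55 at end 31 to −1.15 at ends 32 and 33, and none of the 7 overlapped between genotypes, whereas the trimmed sums did. Of all 200 sums 22% were lower without overlap. Only 2.33% of the 43 proline-like sequences had a positive log2 fold change. On control diet the total was at 3136 ± 446 RPM in WT and 2450 ± 484 RPM in ATF7+/- (n = 3, −0.36, SE 0.19), and the interaction with diet was −0.50 (SE 0.26, edgeR adjusted p 0.692).

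The serine-like family, with 3 sequences, fell as well. It was at 104, 123 and 102 RPM in WT and 61.5, 52.7 and 59.5 RPM in ATF7+/- (−0.92, SE 0.29, edgeR adjusted p 0.0407). These 2 families were all that passed among 19 (percent called 10.5), and 3 families (15.8%) were higher and 4 (21.1%) lower without overlap. The serine-like call was lost without WT replicate 1 or 3, without any ATF7+/- low protein replicate and without ATF7+/- control diet replicate 2, each of which left 1 family called. Selenocysteine-like fragments, mostly 36 nt long, were at 381, 256 and 400 RPM in WT and 236, 228 and 237 RPM in ATF7+/- (−0.56, SE 0.21, edgeR adjusted p 0.092). Selenocysteine tRNA has a longer acceptor stem than other tRNAs and reads UGA codons for selenoproteins.

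**Figure D3:**
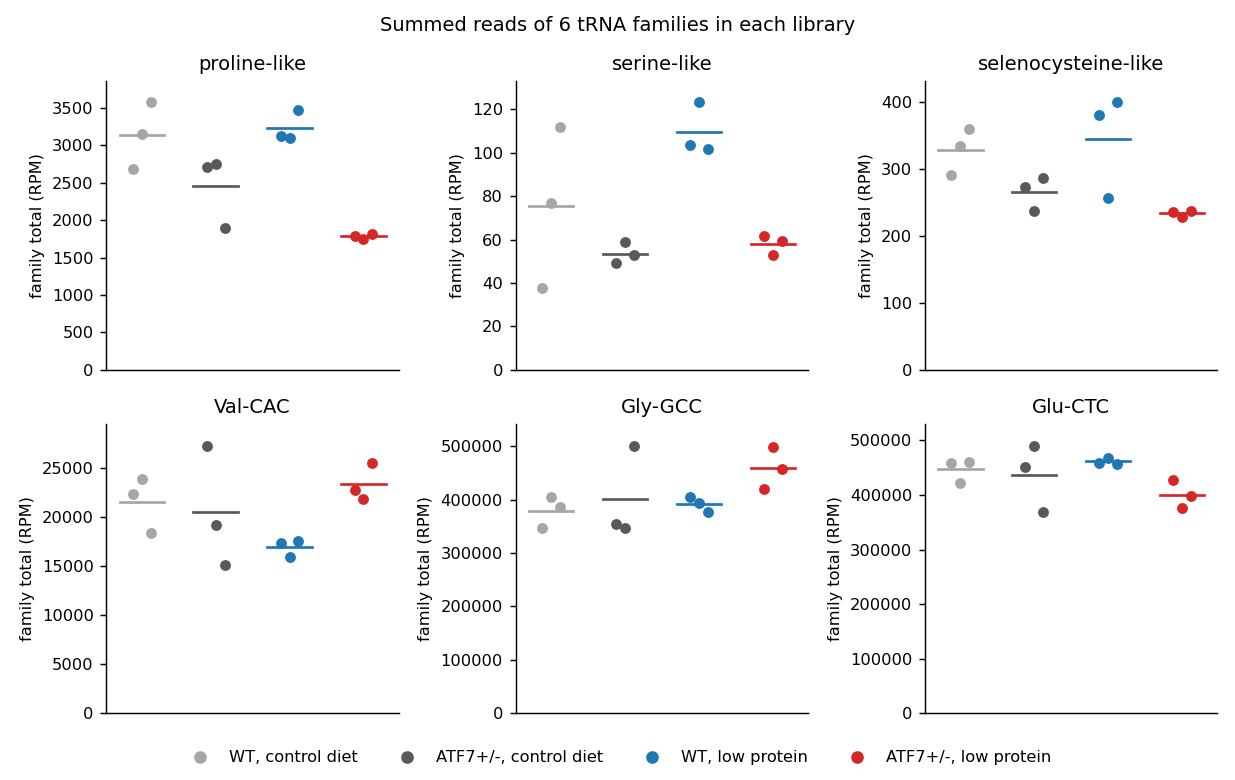
Summed reads of 6 tRNA families (vertical axis, RPM, from 0) in the 12 libraries; each point is a library and each line a group mean. On low protein diet the ATF7+/- libraries lie below the WT ones in proline-like, serine-like, selenocysteine-like and Glu-CTC totals and above them in Val-CAC and Gly-GCC totals.

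The large glutamate and glycine families differed by less as totals. Levels in RPM are parts of a fixed total, and Glu-CTC and Gly-GCC together hold most of it. A large rise in either family therefore lowers the level of the other. The fall of Glu-CTC and the rise of Gly-GCC are thus not independent differences, and the same applies to the signs of their end sums. Which of these families changed in amount was not tested. Glu-CTC was at 459355, 467893 and 457708 RPM in WT and 427124, 377015 and 397362 RPM in ATF7+/- (−0.21, SE 0.13). Gly-GCC was at 405462, 392872 and 376272 RPM in WT and 419739, 498981 and 457749 RPM in ATF7+/- (0.23, SE 0.15). For both the edgeR adjusted p was 0.32, although neither overlapped. Their most abundant fragments overlapped between genotypes. The Glu-CTC fragment of 29 nt had a log2 fold change of −0.13 (SE 0.18) and the Gly-GCC fragment of 28 nt one of −0.07 (SE 0.25). The most abundant fragments of Val-CAC (0.19, SE 0.31), Glu-TTC (−0.12, SE 0.20), Lys-CTT (−0.01, SE 0.24) and His-GTG (−0.53, SE 0.27) overlapped as well. All 10 complete Glu-CTC sums of at least 100 RPM were negative, without a steady course. They were −0.08 at end 27, −0.41 at 28, −0.10 at 29, −0.14 at 30, −0.34 at 31, −0.39 at 32, −0.51 at 33, −0.73 at 34, −0.76 at 35 and −0.62 at 36. At end 34 they were at 7526, 5741 and 5331 RPM in WT and 3165, 4263 and 3806 RPM in ATF7+/-. Trimmed Glu-CTC fragments ending at 34 were at 405, 305 and 305 RPM in WT and 179, 154 and 170 RPM in ATF7+/- (−1.02, SE 0.30).

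Histidine fragments are described by their 5′ end, although no histidine sum passed the main test. Histidine tRNA is unusual in carrying a G added before its first base, and fragments that keep this G are the extended ones. All 10 extended His-GTG sums were negative, with a median of −0.68, and 7 of them did not overlap. Of all 200 sums 22% were lower without overlap. The 10 complete sums, which lack the G, had 6 positive members and a median of 0.05. Extended fragments ending at 29 were at 3718, 5720 and 6787 RPM in WT and 3298, 1814 and 2754 RPM in ATF7+/- (−1.04, SE 0.35). The share of His-GTG reads with the G was 66.2, 63.4 and 60.6% in WT and 49.99, 61.7 and 54.7% in ATF7+/-, and these groups overlapped (exact permutation p 0.2, n = 3). His-GTG totals varied widely in both groups, from 34305 to 59851 RPM in WT and from 24534 to 43332 RPM in ATF7+/-. Glu-TTC (0.09, SE 0.20) and Lys-CTT (−0.12, SE 0.16) totals overlapped as well.

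Among single sequences 6 of 2971 passed in the fit to all 12 libraries (percent called 0.202), 4 higher (0.135%) and 2 lower (0.0673%), and 506 (17%) had an unadjusted p under 0.05. The Gly-TCC fragment that ends 1 base past its anticodon was at 10.5, 13.6 and 9.12 RPM in WT and 3.31, 1.60 and 1.93 RPM in ATF7+/- (−2.30, SE 0.32, edgeR adjusted p 0.0211). The Val-CAC fragment with C34A was at 23.7, 20.9 and 19.5 RPM in WT and 45.8, 63.2 and 64.6 RPM in ATF7+/- (1.44, SE 0.25). Position 34 is the first anticodon base, which longer fragments of this family read as C or G. C34A therefore need not be a change within 1 tRNA. The C30G fragment of Gly-GCC was at 46.1, 50.1 and 58.2 RPM in WT and 119.9, 180.2 and 165.7 RPM in ATF7+/- (1.59, SE 0.29). No group overlapped in any of the 6. As placed without gaps, all 4 that rose carried a differing base at their last or next to last position, and both that fell were trimmed. Both fragments with T27G can also be read as 30 nt Gly-GCC fragments that lack 2 bases. The Glu-CTC fragment can also be read as starting 1 base earlier and lacking a single g. Which reading holds was not tested. The calls were lost without any 1 WT low protein replicate, without ATF7+/- low protein replicate 2 or 3 and without ATF7+/- control diet replicate 2. There were 2 without ATF7+/- control diet replicate 1, 16 without replicate 3 of that group, and 22 and 30 without WT control diet replicates 1 and 3. The 6 log2 fold changes kept their sign under all alternatives run, from −1.28 to −1.05 for the Glu-CTC fragment and from 1.47 to 1.75 for C30G, for example. The split of calls did not hold under other scalings, with 4 higher and 7 lower by TMM as by RLE factors, and 0 higher and 1 lower by upper quartile factors.

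**Figure D4:**
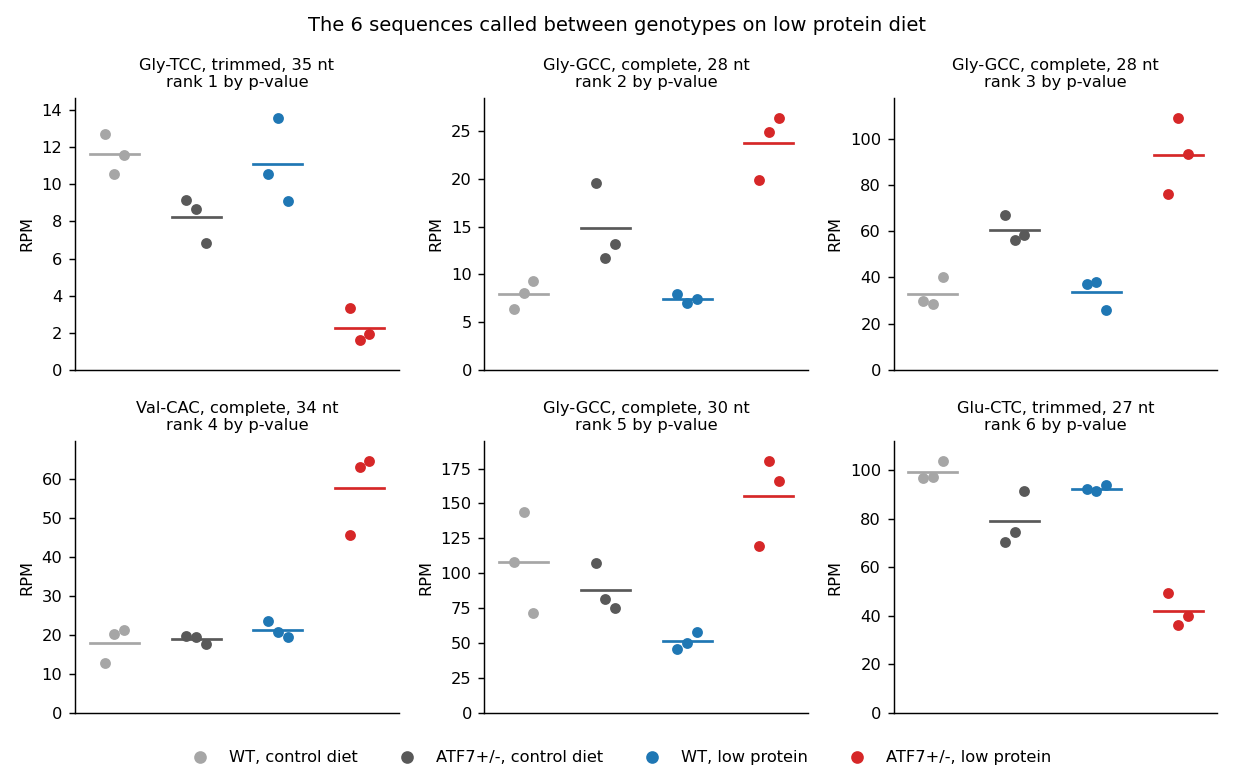
Levels of the 6 sequences called between genotypes on low protein diet (vertical axis, RPM, from 0) in the 12 libraries, with group means as lines. On low protein diet the ATF7+/- points lie above the WT points in 4 panels and below them in the Gly-TCC and Glu-CTC panels; on control diet the gap between genotype means is smaller in each panel and of the opposite sign in the 30 nt Gly-GCC panel.

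Next by p-value, and not called, were fragments of the same kinds. They included the Gly-GCC fragment trimmed to end at 38 (−1.61, SE 0.33), the proline-like fragments ending at 33 (−1.21) and 32 (−1.20), and the Gly-GCC fragment with A36C (−2.24), which carries the whole anticodon. Higher ones were Gly-GCC fragments of 30 nt, with G9A and G15A (12.9 ± 3.04 against 40.2 ± 1.57 RPM, n = 3), T24C and C30T, T5C and C30T, G1C, and G6T and C30G. A Gly-GCC fragment with T5G and C30G was at 0.878, 2.09 and 0.434 RPM in WT, too few reads for a fold, and at 8.49, 12.1 and 10.2 RPM in ATF7+/-. The 28 nt fragment with T5G and T27G was at 1.76, 3.83 and 1.30 RPM in WT and 6.83, 11.4 and 9.04 RPM in ATF7+/-. Serine-like 31 nt, Glu-CTC with T1G and a trimmed Glu-CTC fragment ending at 34 were lower. The 14 sequences ranked 7 to 20 by p-value had edgeR adjusted p-values between 0.0541 and 0.0937, and none overlapped. Over all sequences 21.3% were higher and 14.2% lower without overlap.

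A fit to the 6 low protein libraries alone, which had a smaller spread (biological coefficient of variation 0.195 against 0.326), called 372 sequences (12.6%), 248 higher (8.4%) and 124 lower (4.2%). Of the higher ones 102 (41.1%) had a differing last base and 13 had no differing base at all. Of the lower ones 12 (9.68%) had a differing last base and 54 had no differing base, while 45 were trimmed and 32 were of 34 to 36 nt. Of all 2954 sequences in this fit, 845 (28.6%) had a differing last base, 328 had no differing base, 542 were trimmed and 239 were of 34 to 36 nt. Among Gly-GCC sequences of 34 to 36 nt, 11 of 25 were called lower and 0 higher, and among those of 30 to 33 nt, 111 of 542 were called higher and 5 lower. The 372 calls became 34 without ATF7+/- replicate 3, 68 without WT replicate 2, 119 and 127 without WT replicates 1 and 3, and 540 without ATF7+/- replicate 1.

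Reads whose last base differs from the family's reference were more frequent in ATF7+/- sperm in all 7 families examined. A family may hold more than 1 tRNA, as Val-CAC reads both CAC and GAC. A differing base therefore need not depart from the tRNA it came from. A last base beyond the end of the reference was counted as differing. Of all reads, 13.01, 12.3 and 12.2% ended on a differing base in WT and 14.2, 15.3 and 15.5% in ATF7+/-. For Gly-GCC the means were 13.7 ± 0.496% and 16.7 ± 0.783% (n = 3), and for Val-CAC 22.4 ± 0.971% and 25.0 ± 0.453% (n = 3). The smallest family difference was in Glu-CTC, 11.3 ± 0.385% against 12.7 ± 0.468% (n = 3). No family overlapped, and each had an exact permutation p of 0.1 (adjusted p 0.16). Most of the 48 shares and ratios compared did not overlap either. Of all reads, differing last bases that read T were at 5.72 ± 0.260% in WT and 7.36 ± 0.627% in ATF7+/- (n = 3), and those that read A at 5.55 ± 0.173% and 6.23 ± 0.125% (n = 3). Bases that differ inside the fragment did not follow this pattern in all families. For Gly-GCC they were at 29.5 ± 0.756% and 31.1 ± 0.135% (n = 3, no overlap), for Lys-CTT at 14.3 ± 0.728% and 12.1 ± 1.34% (n = 3, no overlap, lower), and in the other 5 families the groups overlapped. Within Gly-GCC the T5G reads were at 5.13 ± 0.587% in WT and 6.68 ± 0.326% in ATF7+/- (n = 3, no overlap), whereas the more frequent G6T reads were at 19.9 ± 1.01% and 19.8 ± 0.292% (n = 3).

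**Figure D5:**
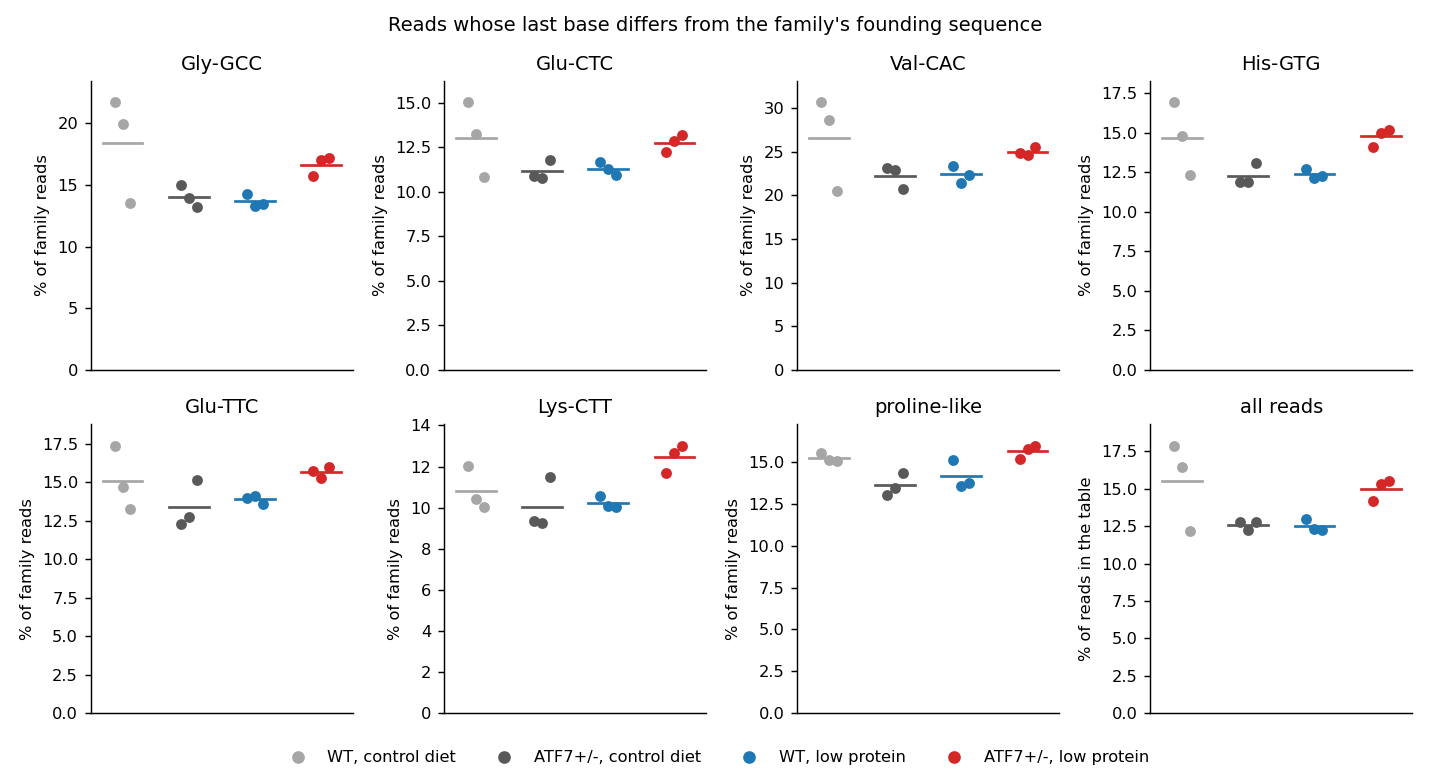
Share of reads whose last base differs from the founding sequence (vertical axis, percent, from 0) in 7 families and in all reads, for the 12 libraries; each point is a library and each line a group mean. On low protein diet all ATF7+/- points lie above all WT points in each panel, while on control diet the WT mean is the higher one in each panel.

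The contrast on control diet served as the background for the genotype difference. In the same edgeR fit it called 0 sequences, 0 families and 0 end sums, with 125, 0 and 2 at an unadjusted p under 0.05. Neither DESeq2 nor limma called any (0 of each). The edgeR test of the interaction of genotype with diet called 0 of each as well, with 292 sequences, 0 families and 12 end sums at an unadjusted p under 0.05. DESeq2 called 5 sequences, 0 families and 0 end sums for the interaction, and limma 0 of each. Among the named fragments the genotype difference on control diet was −0.30 for the C30G fragment of Gly-GCC, the opposite sign to low protein diet. The other 5 called fragments had the same sign on both diets, at 0.89 for T27G and 0.92 for G6T with T27G in Gly-GCC, 0.09 for C34A in Val-CAC, −0.49 for the Gly-TCC fragment and −0.33 for the Glu-CTC one. The difference on low protein diet was not shown to differ from that on control diet for any sequence by the main test.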

How the data were processed

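The deposited table lists small RNA sequences of 15 to 36 nt with a read count per library and a normalised value in RPM, which the authors computed by dividing the deposited counts by a library total. These totals were recovered as count over RPM, and the table held 98.1 to 98.2% of them in the low protein libraries. Per the labels' protocols, Trizol RNA was made into libraries with a NEBNext small RNA kit and sequenced at 36 bp. The genome build was mm10, per the submitters' processing notes; aligner and counter: not given in the sources used here. No column of other samples was present.

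Families were built from the bases alone. Starting from the most abundant, a sequence joined the nearest one already placed within an edit distance of 2 with free ends (edlib 1.3.9.post1), or founded a family. Members with the same family, 5′ state and 3′ end were summed, and sums with a mean of at least 10 RPM (200 of 233) were tested; for single sequences the minimum was 1 RPM, which all passed. The main test was edgeR 4.0.16 quasi-likelihood (R 4.3.3) on the counts of 12 libraries in 4 groups. Library sizes were the totals of the authors, without scaling factors. Two-sided p-values were adjusted by Benjamini-Hochberg within sequences, families and end sums, and called at 0.05. The test was checked on simulated counts. Shares were compared by two-sided exact permutation. Alternatives were limma 3.58.1, DESeq2 1.42.0, other scalings, filters and subsets of libraries.

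The families, lists and comparison were chosen with earlier results of these data known. Named are the called sequences, further ones in order of p-value to make 20, the most abundant sequence of each of the 6 largest families, the called families, others in order of p-value to make 8 and the 6 largest, and the complete end sums of Gly-GCC, Glu-CTC and Val-CAC of at least 100 RPM. Sequences and sums shown for their end positions, and the shares that reach the anticodon, were chosen after their values were seen. A fold needed a group mean of at least 1.36 RPM, the highest per-library level of 3 counts. Replicate libraries of a group differed by 8.54 to 77.4 times counting noise (chi-square per degree of freedom), so none was a repeat deposit. Genome coordinates of the tRNA genes are not reported here.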

Additional observations from a re-analysis of the deposited data

Results flagged for a closer look

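For 10 shares of reads the genotype difference on low protein diet differed from that on control diet by an exact permutation of genotype within each diet (3 libraries per group) at an unadjusted p under 0.05. None passed adjustment over the 48 shares compared. All concern reads that differ from the founding sequence of their family, and the 10 are not independent, since the family shares make up the shares of all reads. In each the ATF7+/- libraries were higher than WT on low protein diet and had the lower mean on control diet.

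The difference of differences was 5.52 percentage points for all reads that differ from the founding sequence (permutation p 0.035, adjusted p 0.187) and 5.41 for reads whose last base differs (permutation p 0.02, adjusted p 0.16). For a differing last base it was 7.34 points in Gly-GCC, 3.34 in Glu-CTC, 4.78 in His-GTG, 3.48 in Glu-TTC, 3.02 in Lys-CTT and 3.15 in proline-like reads (permutation p 0.005 to 0.045, adjusted p 0.16 to 0.216; 0.005 is the smallest possible). For last bases read as T it was 3.40 points and for those read as A 1.75 points of all reads. The control diet difference for all reads came from WT replicates 1 and 2, at 17.9 and 16.4%, while WT replicate 3 was at 12.2% and the ATF7+/- libraries at 12.8, 12.2 and 12.8%. The part of these libraries in the result was not tested.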

How the results depend on the processing

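The proline-like family was called lower under all 30 alternatives, with log2 fold changes of −1.02 to −0.68, and the serine-like family under 19 of 29. Counts of calls moved with the libraries that set the spread. Sequences called were 6 in the main fit, 372 in the 6 low protein libraries with no block, 11 with TMM and with RLE factors, 1 with upper quartile factors and 102 with DESeq2. They were 0 with low protein libraries thinned to 1 total, and 1 family was called there. Leaving out 1 of 12 libraries gave 0 to 30 sequences, 1 to 3 families and 0 to 10 end sums; leaving out 1 of the 6 gave 119, 68 and 127 sequences and 19, 7 and 9 end sums (WT replicates 1 to 3), 540, 339 and 34 sequences and 36, 38 and 1 end sums (ATF7+/- replicates 1 to 3), and 4 to 7 families. End sums called without WT control diet replicates 1 and 3 were 10 and 6. Families called were 4 in the 6 libraries, 1 at a mean of at least 100 RPM and 1 from sequences with no differing base. With TMM 3 families were called, proline-like lower and both valine families higher, and the median over families moved from 0.02 to 0.20 (−0.15 with upper quartile factors). End sums called were 32 in the 6 libraries, 24 with DESeq2, 1 with no filter and 2 at 100 RPM. DESeq2 called 5 sequences for the interaction.

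Replicate numbers gave no sign of pairing. The deviations of same-numbered libraries from their group means had correlations of −0.40, −0.07 and 0.06. Those of differently numbered libraries ran from −0.36 to 0.42. With 3 libraries a side these values cannot settle whether samples were paired. With the replicate block in the 6 low protein libraries 89 sequences (49 higher, 40 lower), 5 families and 0 end sums were called.

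The directions that reversed belonged to values near 0, apart from the Gly-GCC to Gly-CCC ratio. Over left-out libraries the 33 nt Lys-CTT fragment ran from −0.12 to 0.087 (0.036 without WT replicate 1), the 30 nt complete His-GTG fragment from −0.33 to 0.33 (0.20 without ATF7+/- replicate 2), the Glu-TTC total from −0.011 to 0.17, Glu-CTC complete end 27 from −0.23 to 0.042 and Gly-GCC complete end 28 from −0.040 to 0.044 (−0.021 without WT replicate 3). The Glu-TTC total was −0.067 with upper quartile factors, and Lys-CTT was 0.040 with TMM. With RLE factors Glu-CTC complete ends 27, 29 and 30 were at 0.057, 0.042 and 0.016, and with no differing base Gly-GCC end 28 was at −0.068. Among shares, in percentage points, the trimmed share ran from −0.723 to 0.530 (0.162 without WT replicate 3, 0.0094 without ATF7+/- replicate 3), the 27 to 29 nt share from −1.96 to 0.173 (0.102 without WT replicate 2), inner base shares from −0.0703 to 0.310 in Glu-CTC and −0.0996 to 0.629 in proline-like reads (−0.107 at 10 RPM), the G6T share from −0.399 to 0.522 (0.0863 without ATF7+/- replicate 1) and the Glu-TTC share reaching the anticodon from −0.0726 to 0.265. The Gly-GCC to Gly-CCC ratio ran from −30.98 to 384. The cause was not tested.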

Other observations

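The less abundant families not described above showed small differences as totals between genotypes on low protein diet. Aspartate fragments (Asp-GTC) were at 533, 676 and 691 RPM in WT and 846, 685 and 807 RPM in ATF7+/- (log2 fold change 0.30, SE 0.25), and 78.3% of their 23 sequences were positive. Complete ones ending at 29 were at 4.39, 11.8 and 9.55 RPM in WT and 23.4, 19.5 and 24.4 RPM in ATF7+/- (1.37, SE 0.39, edgeR adjusted p 0.0957). This was the largest rise of the 200 sums. Of the 8 Asp-GTC sums ending before the last anticodon base 7 were positive and 1 negative. Methionine fragments (Met-CAT) were at 60.6, 47.7 and 72.1 RPM in WT and 65.6, 85.0 and 82.9 RPM in ATF7+/- (0.38, SE 0.32). Glutamine fragments (Gln-CTG) had a log2 fold change of 0.24 (SE 0.23) and leucine-like fragments one of −0.26 (SE 0.23). In these 4 families the totals overlapped between genotypes. Threonine-like (0.11), cysteine-like (−0.18) and alanine-like (−0.08) totals overlapped as well.

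Glycine isoacceptors were level as totals, Gly-TCC at 0.08 (SE 0.20) and Gly-CCC at 0.02 (SE 0.23), although their fragments reaching the anticodon were lower in ATF7+/- sperm. Complete Gly-TCC fragments ending at 31 were at 183, 208 and 240 RPM in WT and 395, 319 and 356 RPM in ATF7+/- (0.76, SE 0.26), and at end 32 at 51.3, 41.4 and 52.1 RPM in WT and 93.2, 73.4 and 77.8 RPM in ATF7+/- (0.75, SE 0.26). Neither overlapped between genotypes, and neither passed the main test over all end sums (adjusted p 0.132 and 0.135 by edgeR quasi-likelihood).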
